A study of Mus musculus with 82 samples.

Results

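The genes described here are 9 that encode the GATA factors, the SCL complex and the factors of the red cell and platelet lineages: Gata1, Gata2, Zfpm1, Klf1, Tal1, Lyl1, Lmo2, Nfe2 and Gfi1b. They were taken by symbol from the gene counts and are 9 of the 55376 genes in the count files. Each of the 9 had a row in every RNA-seq library and passed the filter on low counts in every comparison. The cells came from male C57BL/6J mice. Hematopoietic stem cells (HSC, sorted as Lin-Sca-1+c-kit+CD34-Flk2-CD150+) were compared between young (YHSC, 4 RNA-seq libraries, each from pooled mice) and old animals (OHSC, 8 libraries, each from 1 mouse). Cultured HSC from old mice carried a lentiviral control shRNA (shControl) or 1 of 2 shRNAs against a short transcript of Btaf1 (2 libraries each). Full-length BTAF1 is an ATPase that removes TATA-binding protein from DNA, and the study describes the short form as one without the ATPase part. HSC of old donors with the same 3 vectors were also recovered from lethally irradiated female CD45.1 recipients (2 libraries each, each pooled from several recipients). They were sorted by the donors' CD45.2 and a gate on CD150+CD48- stem cells. No young HSC carried a vector. Common myeloid (CMP), granulocyte-monocyte (GMP) and megakaryocyte-erythroid progenitors (MEP) are labelled as young (2 RNA-seq libraries each). ATAC-seq of 4 YHSC and 4 OHSC libraries and ChIP-seq of young HSC for H3K4me3 and H3K27me3 and of YHSC and OHSC for H3K27ac, and pooled domains of H3K36me3, were used for the same genes.

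GATA factors bind the letters GATA through zinc fingers. GATA2 acts in stem and early progenitor cells, and GATA1 takes its place on chromatin as red cells mature. GATA1 also acts in megakaryocytes, mast cells and eosinophils. FOG1, the product of Zfpm1, is the cofactor of GATA1. SCL (Tal1) and its relative LYL1 are bHLH factors that pair with E proteins on CANNTG sites and are joined to GATA factors by the bridging protein LMO2. KLF1 binds CACCC boxes of globin and other red cell genes, NF-E2 is the bZIP factor of globin and platelet genes, and GFI1B is a repressor that recruits the CoREST complex.

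The RNA-seq libraries held 20475764 to 24654742 counted reads in HSC by age, 37292602 to 42737054 in the shRNA experiments and 33177394 to 36510850 in progenitors, and the ATAC-seq libraries 15427933 to 26260337. Levels are given as CPM, counts scaled to the same total in every library, and, between genes, as RPKM, which is CPM divided by the exon length in kb. Fold and log2 changes come from fits with a further scaling between libraries (TMM), so they can differ from ratios of CPM. Btaf1, for example, was 157 CPM in GMP and 185 CPM in CMP at a log2 change of -0.01. In bulk samples, fewer cells of a type and less RNA per cell cannot be told apart. Counts over all Btaf1 transcripts, the targeted one and the others together, were 137 and 141 CPM in cultured controls against 110.0 to 119 CPM with the shRNAs. After transplantation they were 161 and 165 against 118 to 139 CPM. The summed CPM of 12 red cell markers was 7102 and 7634 in MEP, where the mean of each was 1 CPM or more, against 213 and 215 in CMP and 6.70 and 8.59 in GMP. The summed CPM of 10 megakaryocyte markers was 15.6 and 17.8 in MEP, with Ppbp, Gp1bb and Clec1b at 0 in both libraries, against 539 and 556 in CMP and at most 66.9 in GMP. The libraries labelled MEP thus held red cell markers and little of these megakaryocyte markers, which the label also names. Each of 10 HSC markers had a mean of 1 CPM or more in both YHSC and OHSC, and the sum of 10 granulocyte and monocyte markers was 57133 and 58216 CPM in GMP.

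The letters that these factors read were sought in the sequences of the genes themselves. RefSeq promoters of the GRCm38.p6 assembly, from 250 bases before to 50 after a start, matched 7 of the 9 genes, all but Lmo2 and Nfe2, with 2 promoters each for Gata2 and Tal1. The promoters of Klf1 and Gfi1b and 1 of those of Tal1 each held 1 GATA hexamer (GATA after A or T and before A or G, on either strand), which 29.8% of 32851 promoters held at least once. Those of Gata1, Gata2, Zfpm1 and Lyl1 held none. CACCC, the core of a KLF1 site, was present in 4 copies in the promoter of Lyl1, 3 in that of Zfpm1, 2 each in those of Gata1 and Klf1 and at most 1 in the others, and at least once, on either strand, in 57.5% of all promoters. The 3 promoters with a GATA hexamer, in capitals, and that of Gata1, with CACCC in capitals, are printed along the strand of each gene because GATA factors and KLF1 are themselves among the 9.
Klf1 promoter (chr8:84901732-84902031, plus strand): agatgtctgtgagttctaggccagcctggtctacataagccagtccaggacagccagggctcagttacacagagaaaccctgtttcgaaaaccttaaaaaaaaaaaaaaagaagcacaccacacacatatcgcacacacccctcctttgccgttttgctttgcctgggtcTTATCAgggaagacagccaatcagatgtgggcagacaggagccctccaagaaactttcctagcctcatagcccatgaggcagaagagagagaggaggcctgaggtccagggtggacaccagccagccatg
Gfi1b promoter (chr2:28621933-28622232, minus strand): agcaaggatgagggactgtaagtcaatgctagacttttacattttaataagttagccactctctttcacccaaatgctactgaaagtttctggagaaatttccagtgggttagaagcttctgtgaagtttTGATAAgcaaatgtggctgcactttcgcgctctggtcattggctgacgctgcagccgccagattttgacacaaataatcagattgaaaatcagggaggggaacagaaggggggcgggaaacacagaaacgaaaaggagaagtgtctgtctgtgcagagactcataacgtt
Tal1 promoter (chr4:115056176-115056475, plus strand): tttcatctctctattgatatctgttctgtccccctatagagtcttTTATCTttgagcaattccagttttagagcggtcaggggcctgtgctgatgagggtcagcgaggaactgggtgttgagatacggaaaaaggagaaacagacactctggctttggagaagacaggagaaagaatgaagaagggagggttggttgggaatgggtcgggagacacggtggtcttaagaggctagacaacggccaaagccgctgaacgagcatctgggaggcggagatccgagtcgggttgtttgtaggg
Gata1 promoter (chrX:7967861-7968160, minus strand): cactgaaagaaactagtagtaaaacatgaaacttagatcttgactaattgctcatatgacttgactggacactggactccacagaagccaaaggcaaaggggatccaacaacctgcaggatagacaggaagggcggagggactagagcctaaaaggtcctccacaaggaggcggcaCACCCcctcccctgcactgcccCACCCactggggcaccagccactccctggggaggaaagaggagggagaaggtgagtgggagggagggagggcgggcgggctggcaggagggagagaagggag

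A CANNTG site followed by GATA at a gap of 7 to 9 bases, the composite element of the SCL and GATA complex, was present in 2.28% of the middle 300 bases of 127692 accessible regions and in 1.66% of promoters. Among the 70 accessible regions within 10 kb of the members, 1 of those that held it is in an intron of Gata2, 9.44 kb after its first annotated start, where an enhancer bound by SCL and GATA factors is known. It is shown with the composite element in capitals, followed by the 1 region tested at Gata1, in an intron 6.59 kb after its first annotated start, with its GATA hexamer in capitals. A match describes these letters and says nothing of binding, and 37.2% of accessible regions held a GATA hexamer in the same window.
Gata2 intron (chr6:88203179-88203478, plus strand): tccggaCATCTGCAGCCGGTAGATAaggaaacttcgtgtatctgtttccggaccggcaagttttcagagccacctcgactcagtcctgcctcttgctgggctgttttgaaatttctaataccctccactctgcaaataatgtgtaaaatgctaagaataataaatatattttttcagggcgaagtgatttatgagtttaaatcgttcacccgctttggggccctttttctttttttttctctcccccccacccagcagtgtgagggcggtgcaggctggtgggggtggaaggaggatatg
Gata1 intron (chrX:7971333-7971632, minus strand): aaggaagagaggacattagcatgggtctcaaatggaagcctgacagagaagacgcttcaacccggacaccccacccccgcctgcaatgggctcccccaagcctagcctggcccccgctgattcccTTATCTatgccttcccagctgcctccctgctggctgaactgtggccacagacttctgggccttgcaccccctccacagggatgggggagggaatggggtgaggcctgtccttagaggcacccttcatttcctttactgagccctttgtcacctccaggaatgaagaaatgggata

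Places are given in mm10. The 2 GATA genes had different patterns over the 11 RNA-seq groups. Gata1 (ENSMUSG00000031162, chrX:7959260-7978071) was highest in MEP, at 403 and 426 CPM, followed by CMP at 99.3 and 119 CPM and YHSC at 11.6 to 15.3 CPM, and these 3 groups did not overlap. Among the shRNA groups Gata1 lay between 7.91 and 11.2 CPM, with neighbouring groups overlapping except above cultured shRNA2. GMP (3.94 and 7.96 CPM) and OHSC (3.04 to 8.14 CPM) were lowest and overlapped. Gata2 (ENSMUSG00000015053, chr6:88193891-88207032) was highest in OHSC at 535 to 674 CPM and was 360.4 to 486 CPM in every other HSC library and in CMP. It was 38.9 and 48.4 CPM in MEP and 29.3 and 57.9 CPM in GMP, which overlapped. Per exon length, Gata2 exceeded Gata1 in each of the 28 libraries outside MEP, by 13.9 to 19.0 times in YHSC and 33.5 to 91.9 times in OHSC. The ratio was 15.3 to 24.5 in cultured and 17.5 to 25.9 in transplanted HSC, and 1.64 and 1.66 in CMP. In MEP the order was reversed, with Gata1 RPKM 18.4 and 24.2 times that of Gata2. Zfpm1 (ENSMUSG00000049577, chr8:122282141-122337251) was 167 to 225 CPM in YHSC, 109 to 219 CPM in OHSC and 147 and 187 CPM in MEP, which overlapped. In GMP, the lowest group, it was 1.80 and 6.03 CPM.

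Klf1 (ENSMUSG00000054191, chr8:84901928-84905291) had the widest range of the 9 genes as a ratio of the highest to the lowest library. It was 791 and 811 CPM in MEP, 72.0 and 74.4 CPM in CMP and 10.1 to 15.8 CPM in YHSC. It did not exceed 5.98 CPM in any OHSC, shRNA or GMP library. From transplanted shRNA2 downwards in the order of the means each of these groups overlapped the next. Per exon length Klf1 was the highest of the 9 genes in MEP, at 523 ± 9.27 RPKM (SD, n = 2), and the lowest but 1 in YHSC, at 8.12 ± 1.79 RPKM (SD, n = 4). Gfi1b (ENSMUSG00000026815, chr2:28609450-28621982) also peaked in MEP, at 463 and 488 CPM, but unlike Klf1 it was 65.0 to 119.5 CPM in every HSC and CMP library. Neighbours in the order of these groups overlapped except cultured shRNA1 and shRNA2. In GMP it was 1.69 and 4.70 CPM.

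The genes of the SCL complex differed in where they were kept. Lmo2 (ENSMUSG00000032698, chr2:103957986-103981878) was the highest member per exon length in every group but MEP. It was 1091 to 1304 CPM in HSC by age, 801 to 1042 CPM after transplantation and 451 to 483 CPM in culture. In the 3 progenitors it was 264 to 428 CPM. Its mean level per exon length in YHSC was 532 RPKM, against 184 for Nfe2 and 87.3 for Gata2. Tal1 (ENSMUSG00000028717, chr4:115056426-115071755) was 80.3 and 91.0 CPM in MEP, 61.0 to 76.4 CPM in HSC by age and 35.4 to 61.6 CPM in the shRNA groups. It was 29.0 and 31.7 CPM in CMP and 6.96 and 9.22 CPM in GMP. Lyl1 (ENSMUSG00000034041, chr8:84701457-84704715) had the reverse order of Tal1 in the progenitors, at 31.0 and 33.3 CPM in GMP, 27.4 and 33.6 CPM in CMP and 10.6 and 11.1 CPM in MEP, and of these GMP and CMP overlapped. Lyl1 lies within Nfix on the opposite strand, with 4 of its 1800 exon bases, 0.222%, shared. Nfe2 (ENSMUSG00000058794, chr15:103248212-103258403), the hematopoietic subunit of NF-E2, was 530.3 to 674 CPM in all HSC libraries. It was lower in the order CMP (371 and 402 CPM), GMP (223 and 240.1 CPM) and MEP (107 and 116 CPM), none of which overlapped. The HSC, shRNA and progenitor libraries came from separate experiments, and the experiment cannot be told apart from the group between them.

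**Figure D1:**
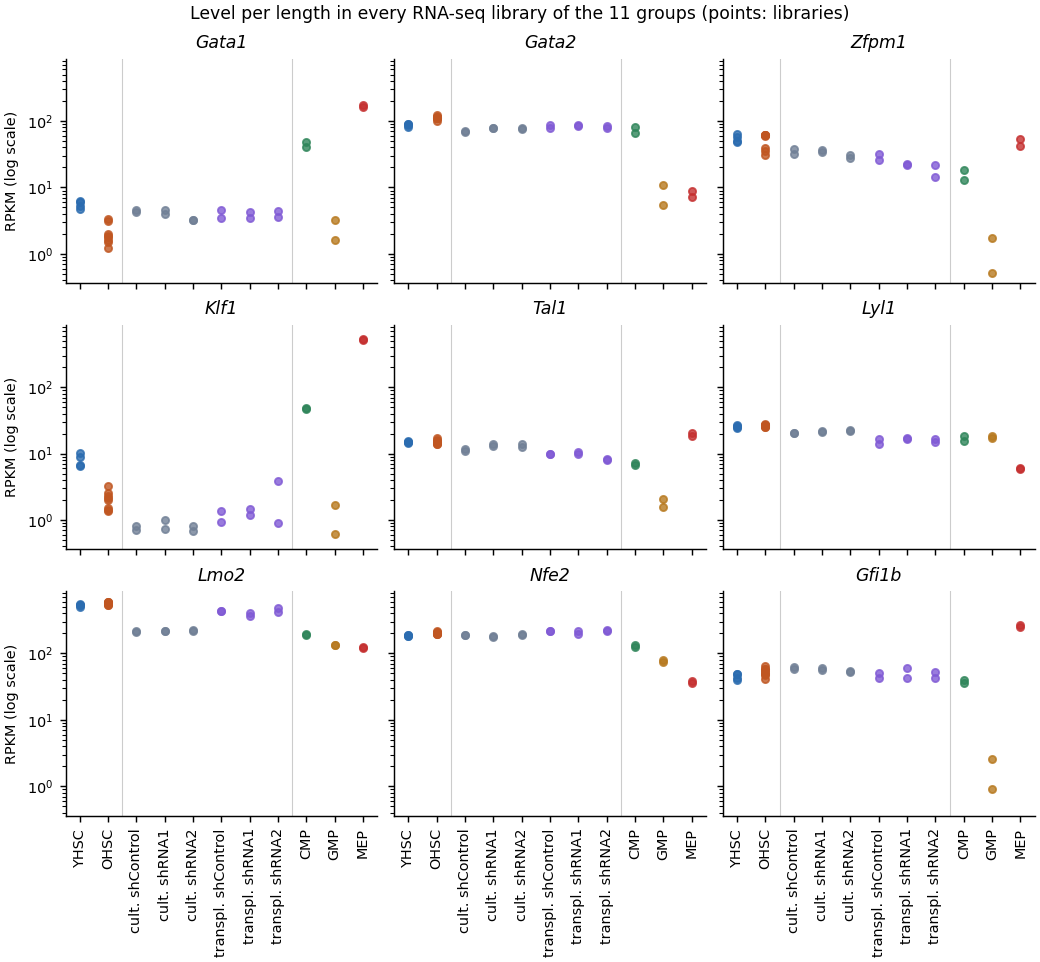
Level of each gene per exon length (RPKM, log scale) in every RNA-seq library, by group; each point is 1 library. Gata1, Klf1 and Gfi1b were highest in MEP, while Gata2 and Nfe2 were lower in MEP than in any HSC or CMP library, and Lyl1 was lower in MEP than in any other library.

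With age, Klf1 and Gata1 fell and Gata2 rose by a smaller factor. The comparison asked which genes differ between old and young HSC. A gene was called at a change above 1.5-fold with an edgeR adjusted p below 0.05 over 21522 genes. Of the 9 members 2 were called, both lower in OHSC, where 2.83% of all genes were called lower and 4.69% higher. Klf1 was 10.1, 10.3, 13.6 and 15.8 CPM in YHSC and 2.13 to 4.99 CPM (median 3.19) in OHSC. Every OHSC library lay below every YHSC library, and Klf1 fell 3.82-fold (log2 change -1.93, SE 0.19, adjusted p = 4.94e-07). Gata1 was 11.6, 12.9, 14.8 and 15.3 CPM in YHSC and 3.04 to 8.14 CPM (median 4.44) in OHSC. The groups again did not overlap, although the libraries of old mice 3 and 8 (7.57 and 8.14 CPM) were higher than the other 6 (3.04 to 4.82 CPM). Gata1 fell 2.65-fold (log2 change -1.41, SE 0.22, adjusted p = 0.000236). In YHSC 206 to 380 reads a library fell on Klf1 and 251 to 369 on Gata1, and in OHSC 48 to 114 and 75 to 186. Both calls held without any 1 library.

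Another 3 members passed the adjusted p below the 1.5-fold threshold, all of them higher in OHSC, as were 7.24% of all genes. At any fold 5 of the 9 members passed it, as did 20.6% of all genes. Gata2 was 447 to 486 CPM in YHSC and 535 to 674 CPM in OHSC, with no overlap, and rose 1.32-fold (log2 change 0.40, SE 0.05, adjusted p = 1.09e-06). Nfe2 was 536 to 562 CPM against 583 to 644 CPM, again with no overlap, a rise of 1.13-fold (adjusted p = 0.00125). Lmo2 rose 1.10-fold (adjusted p = 0.0171) with overlapping libraries. The other 4 did not pass. Tal1 was 65.4 ± 1.89 CPM in YHSC (SD, n = 4) and 66.5 ± 5.10 CPM in OHSC (SD, n = 8), and Lyl1 45.9 ± 2.13 and 47.8 ± 1.87 CPM. Gfi1b was 82.5 ± 7.60 and 96.3 ± 13.8 CPM (log2 change 0.26, SE 0.11, adjusted p = 0.114). Zfpm1 differed more among old mice than between the ages. It was 167 to 225 CPM in YHSC, 207 to 219 CPM in 5 OHSC libraries and 109, 124 and 137 CPM in those of old mice 6, 5 and 2, a log2 change of -0.06 with an SE of 0.21.

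**Figure D2:**
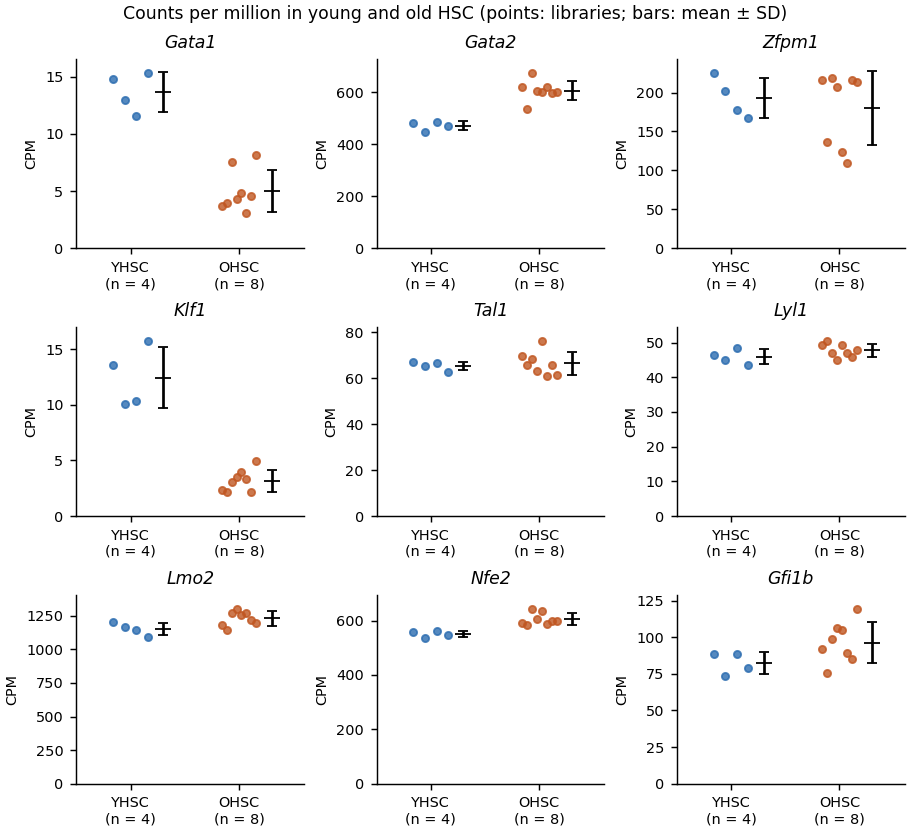
CPM of each gene in 4 YHSC and 8 OHSC libraries (points), with the mean ± SD of each group beside them; each vertical axis starts at 0. Klf1 and Gata1 in OHSC lie below all YHSC libraries, Gata2 and Nfe2 above them, and Zfpm1 in OHSC forms a set of 5 libraries at 207 to 219 CPM and a set of 3 at 109 to 137 CPM.

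Genes that these factors act with or on were followed in 6 lists, beside 4.69% of all genes called higher and 2.83% lower with age. None of the 12 partners of the SCL complex, the 12 NuRD and CoREST subunits that join FOG1 and GFI1B or the 7 partners and relatives of NF-E2 was called between the ages. Their median log2 changes were 0.10, -0.01 and 0.14 against -0.01 over all genes tested. Of the 9 family relatives tested 1 was called, Klf2, which fell from 6.94 ± 2.41 to 2.55 ± 0.72 CPM. Of 28 red cell target genes 10 fell and 4 rose, with a median log2 change of -0.25. Among the 10 was Car1, a carbonic anhydrase of early red cells, from 141 ± 21.8 CPM in YHSC (SD, n = 4) to 8.11 ± 6.95 CPM in OHSC (SD, n = 8). Kel, a blood group antigen, fell from 4.83 ± 1.26 to 0.42 ± 0.27 CPM, and the others included Rhd, Rhag, Ermap, Epb42, Sptb, Ank1 and Cldn13. The 4 that rose were the heme synthesis enzyme gene Alas2 and the globin genes Hba-a1, Hba-a2 and Hbb-bs, the last from 3.09 ± 1.29 to 35.1 ± 27.2 CPM. Near-identical globin genes share reads, which makes the split between them uncertain. Of 20 megakaryocyte target genes 7 rose and 2 fell, with a median log2 change of 0.38. Selp, the P-selectin of platelet granules, rose from 52.0 ± 9.48 to 508 ± 22.2 CPM, and Itgb3, the beta chain of the fibrinogen receptor, from 90.1 ± 12.3 to 419 ± 45.0 CPM. Thus Gata1 and Klf1 fell beside 10 of the 28 red cell target genes, while 3 globin genes, Alas2 and 7 of the 20 megakaryocyte target genes rose.

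Markers of other cells were followed beside Gata1 and Klf1. The 12 red cell markers, all of them also in the target list, summed to 186 to 246 CPM in YHSC and 53.2 to 228 CPM in OHSC. Of these 5 were called lower and 4 higher, and Cldn13 was at 0 in at least 1 OHSC library. The 2 OHSC libraries with the most Gata1, those of mice 3 and 8, had sums of 94.5 and 228 CPM, while those of mice 4 and 6, at 4.33 and 3.04 CPM of Gata1, had sums of 125 and 113 CPM. Those of mice 1, 2, 5 and 7, at 3.71, 3.97, 4.82 and 4.55 CPM of Gata1, had sums of 57.3, 53.2, 59.8 and 66.8 CPM. Klf1 was 2.30, 2.13, 3.09, 3.49, 3.94, 3.29, 2.16 and 4.99 CPM in mice 1 to 8. The 8 B cell markers summed to 87.1 to 156 CPM in YHSC and 37.2 to 45.4 CPM in OHSC, and the 10 megakaryocyte markers to 179 to 211 and 307 to 385 CPM. The 10 granulocyte and monocyte markers summed to 158 to 336 CPM in YHSC and 319.7 to 433 CPM in OHSC, and overlapped. The part of such cells in the results was not tested.

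**Figure D3:**
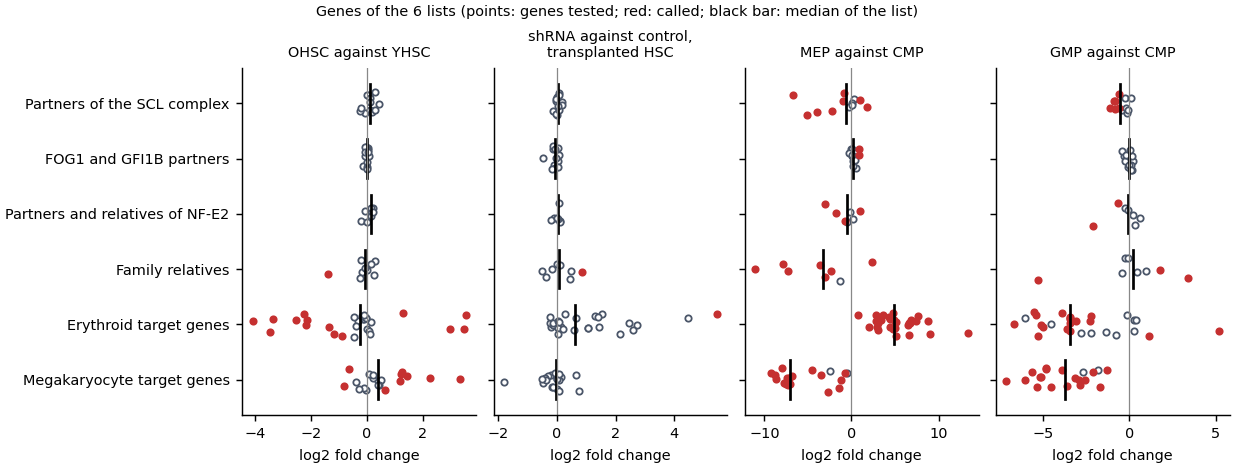
Log2 fold changes of the tested genes of 6 lists (points; red where called) with the median of each list (black bar) in 4 comparisons; the horizontal scales differ between panels. With age most called red cell genes fell and most called megakaryocyte genes rose; in MEP against CMP all 28 red cell genes rose and 18 of 20 megakaryocyte genes fell; in GMP against CMP 16 red cell and 18 megakaryocyte genes fell.

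Knockdown of the short Btaf1 transcript was compared with the control vector to ask which genes it changes in old HSC. A gene was called here at a change above 1.5-fold with an unadjusted p below 0.05. In culture, none of the 9 members was called by edgeR or DESeq2, where 2.45% of 19763 genes were called higher and 0.972% lower. At any fold, 2 members had an unadjusted p below 0.05, as did 15.3% of all genes. Gata2 was 374 and 388 CPM in the controls and 414 to 431 CPM in the 4 knockdown libraries, without overlap (log2 change 0.13, SE 0.04, adjusted p = 0.0716). Tal1 was 48.4 and 51.9 CPM in the controls and 55.8 to 61.6 CPM with the shRNAs, also without overlap (log2 change 0.22, SE 0.06, adjusted p = 0.0972). In a fit that kept the shRNAs separate both genes passed an adjusted p of 0.05 with each of them, all below 1.5-fold, as did 9.05% of all genes with shRNA1 and 8.68% with shRNA2 at any fold. Nfe2 passed with shRNA1 (log2 change -0.10, adjusted p = 0.0481) and Gfi1b with shRNA2 (-0.16, adjusted p = 0.0488). Gata2 had log2 changes of 0.12 and 0.14 (adjusted p = 0.0213 and 0.00972) and Tal1 of 0.22 and 0.22 (adjusted p = 0.0435 and 0.0456). The summed HSC markers were 1500 and 1508 CPM in the controls and 1651 to 1724 CPM with the shRNAs, those of the progenitor gates 1290 and 1295 against 1657 to 1746 CPM, and those of T and NK cells 35.9 and 37.5 against 18.9 to 25.4 CPM. Those of granulocytes and monocytes were 179 and 189.8 CPM in the controls and 208 to 260.4 CPM with the shRNAs. In each cultured group 1 of the 6 T and NK markers and 4 of the 10 granulocyte and monocyte markers had a mean of 1 CPM or more. Cd3e, Cd3g, Klrd1, Ngp, S100a8 and S100a9 were at 0 in all of these libraries. The part of these markers was not tested. Gata1 was 10.6 and 10.99 CPM in the controls, 9.63 and 11.2 CPM with shRNA1 and 7.91 and 7.96 CPM with shRNA2. With shRNA2 alone its log2 change was -0.45 (SE 0.14, adjusted p = 0.0395), and that of shRNA2 against shRNA1 was -0.37 (SE 0.14, adjusted p = 0.132). Nfe2 was the 1 member that passed an adjusted p of 0.05 between the 2 shRNAs, at a log2 difference of 0.11 (SE 0.03, adjusted p = 0.0392), where 5.59% of all genes did. Klf1 was at 43 to 65 reads in each of these 6 libraries, and its log2 change of 0.08 had an SE of 0.28. For the other 5 members the log2 changes ran from -0.12 (Zfpm1, SE 0.13) to 0.08 (Lyl1, SE 0.07). Lyl1 was also without overlap, at an unadjusted edgeR p of 0.248, and the share of all genes without overlap was not counted.

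After transplantation none of the 9 members was called by edgeR or DESeq2, where 1.43% of 20350 genes were called higher and 0.811% lower. At any fold, 1 member had an unadjusted p below 0.05, as did 5.59% of all genes. It was Zfpm1, which encodes the GATA1 cofactor FOG1, at 90.1 and 111 CPM in the controls, 75.4 and 79.9 CPM with shRNA1 and 50.4 and 77.1 CPM with shRNA2. All 4 knockdown libraries were below both controls, and the share of all genes apart in this way was not counted. The summed HSC markers (3044 and 3181 CPM in the controls, 2686 to 3017 CPM with the shRNAs) and those of the progenitor gates (2026 and 2213 against 1785 to 1966 CPM) were apart in the same way, and their part was not tested. The log2 change of Zfpm1 was -0.52 (SE 0.17, adjusted p = 0.852), short of the fold threshold. It was called with shRNA2 alone (log2 change -0.66, SE 0.19, adjusted p = 0.316) and without control library 1 (-0.67) or shRNA1 library 1 (-0.59). The shares of all genes called in these fits were not counted. Klf1 was 1.42 and 2.07 CPM in the controls, 1.84 and 2.25 CPM with shRNA1 and 5.98 and 1.40 CPM with shRNA2. The library with 5.98 CPM also had the highest sum of red cell markers of the 6, 184 CPM against 30.2 to 162. The log2 change of Klf1, 0.71, had an SE of 0.56. Tal1 was lower with shRNA2 (35.4 and 36.6 CPM) than with shRNA1 (43.8 and 46.7 CPM), a log2 difference of -0.32 (SE 0.09, adjusted p = 0.289). The change with knockdown differed between transplanted and cultured HSC for none of the 9 members by edgeR or DESeq2, at an adjusted p below 0.05 that 0.21% of 21443 genes passed. None had an unadjusted p below 0.05. The lowest p was that of Tal1, whose log2 change differed by -0.30 (SE 0.14, adjusted p = 0.58).

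Over all genes 2.45% were called higher and 0.972% lower in culture, and 1.43% and 0.811% after transplantation. Among the lists, the partners of SCL, FOG1 and GFI1B held no called gene in either knockdown. In culture Bach2, a relative of NF-E2 that represses, fell from 19.2 ± 2.23 to 13.0 ± 1.34 CPM (adjusted p = 0.00981), though not by 1.5-fold without control library 1, shRNA1 library 1 or 2 or shRNA2 library 1 (log2 changes -0.46, -0.54, -0.58 and -0.57). Gfi1, the sister gene of Gfi1b, fell from 13.3 ± 0.14 to 8.34 ± 0.67 CPM (adjusted p = 0.0035), and Gfi1b was 109 ± 4.92 and 103 ± 6.11 CPM (SD; n = 2 controls, n = 4 with an shRNA). Of 17 red cell target genes 2 fell and 3 rose. Tfrc, the transferrin receptor, fell from 110.0 ± 0.40 to 66.7 ± 2.57 CPM (adjusted p = 5.32e-06) and Hbb-bs from 8.54 ± 0.06 to 5.67 ± 0.38 CPM (adjusted p = 0.0188). Epb42, a red cell membrane protein, rose from 0.53 ± 0.16 to 1.59 ± 0.27 CPM (adjusted p = 0.0152). The call on Hbb-bs was lost without shRNA1 library 2 or shRNA2 library 1 (log2 changes -0.58 and -0.58). The 12 red cell markers summed to 122 and 123 CPM in the cultured controls, 77.8 and 83.2 CPM with shRNA1 and 101 and 105 CPM with shRNA2. In each of these groups 3 of the 12 had a mean of 1 CPM or more, and their part was not tested. Rhag, also called higher, was 0.05 ± 0.07 CPM in the controls and was no longer called without control library 2 or shRNA2 library 1. Of the 20 megakaryocyte genes 1 was called, Clec1b, which was higher (log2 change 1.13, SE 0.51, adjusted p = 0.298). After transplantation 1 of 8 family relatives (Lmo1, adjusted p = 0.852) and 1 of 26 red cell genes (Rhd, adjusted p = 0.852) were called higher, and the median log2 change of the red cell list was 0.60, against 0.00 over all genes. The call on Lmo1 was lost without control library 1 (log2 change 0.61) and that on Rhd, at 0.02 ± 0.03 CPM in the controls, without either control library. The sums of the 12 red cell markers were 30.7 and 81.8 CPM in the transplanted controls and 30.2 to 184 CPM with the shRNAs, and overlapped.

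The progenitor comparisons held the most called members. Between MEP and CMP 8 members were called, 5 higher and 3 lower in MEP. Over all genes, 17.5% of 18234 genes were called higher and 29.2% lower at a change above 1.5-fold and an adjusted p below 0.05. Klf1 rose from 72.0 and 74.4 to 791 and 811 CPM (log2 change 3.57, SE 0.18, adjusted p = 7.49e-05), Gfi1b 7.42-fold (log2 change 2.89), Gata1 4.11-fold (2.04), Zfpm1 3.28-fold (1.72) and Tal1 3.05-fold (1.61). Gata2 fell 8.43-fold (log2 change -3.08, SE 0.42, adjusted p = 0.00728), Nfe2 3.20-fold (-1.68) and Lyl1 2.59-fold (-1.37). The red cell marker sums (7102 and 7634 CPM in MEP, 213 and 215 CPM in CMP), the megakaryocyte sums (15.6 and 17.8 against 539 and 556 CPM), the granulocyte and monocyte sums (36.3 and 69.2 against 16630 and 20012 CPM) and the mast cell, basophil and eosinophil sums (at most 1.21 against 363 and 364 CPM) moved with these changes. So did those of B cells (5.21 and 3.71 against 40.1 and 43.5 CPM), HSC (622 and 687 against 973 and 978 CPM) and the progenitor gates (532 and 584 against 1900 and 1911 CPM). The T and NK sums, in which 1 of 6 markers had a mean of 1 CPM or more, were 2.84 and 3.45 against 354 and 344 CPM. The part of all these markers was not tested. Lmo2 was 1.45-fold lower, below the fold threshold, and was called without CMP library 1 (log2 change -0.59) or without the filter on low counts (-0.60). With 2 libraries a group the call on Zfpm1 (adjusted p = 0.0417) was lost without any 1 of the 4 MEP and CMP libraries (log2 changes 1.45 to 1.99, adjusted p 0.116 to 0.184) and without the filter on low counts (1.66, adjusted p = 0.0847). That on Gata2 was lost without MEP library 1 or 2 (-2.94 and -3.25, adjusted p = 0.0618 and 0.0542).

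Between GMP and CMP 6 members were called, all lower in GMP, where 10.5% of genes were called lower and 6.24% higher. Klf1 fell 36.2-fold, from 72.0 and 74.4 to 0.93 and 2.59 CPM (log2 change -5.18, SE 0.28, adjusted p = 0.000305), Gfi1b 18.9-fold, Gata1 15.9-fold, Zfpm1 12.3-fold, Gata2 7.88-fold and Tal1 3.23-fold. Gata1, Gata2, Zfpm1, Klf1 and Gfi1b were each higher in GMP library 2 than in GMP library 1, Gata2 at 57.9 against 29.3 CPM and Gfi1b at 4.70 against 1.69 CPM. GMP library 2 also had more of the mast cell, basophil and eosinophil markers (summed CPM 406 against 226) and of the megakaryocyte markers (66.9 against 36.03). In CMP these sums were 363 and 364 and 539 and 556 CPM. The red cell sums were 6.70 and 8.59 CPM in GMP against 213 and 215 CPM in CMP, and the granulocyte and monocyte sums 57133 and 58216 against 16630 and 20012 CPM. Those of HSC were 553 and 617 against 973 and 978 CPM, and those of the progenitor gates 1511 and 1593 against 1900 and 1911 CPM. The T and NK sums, with 1 of 6 markers at a mean of 1 CPM or more, were 707 and 739 against 354 and 344 CPM. The part of such cells was not tested. Lmo2 and Nfe2 passed the adjusted p below the fold threshold (log2 changes -0.31 and -0.52), and Lyl1 did not pass (0.29, SE 0.12, adjusted p = 0.0686). The calls on Gata2 and Zfpm1 were lost without either CMP or either MEP library (adjusted p 0.0559 to 0.102), at log2 changes of -3.11 to -2.84 and -3.87 to -3.33. Between MEP and GMP 7 members were called. They were Klf1, Gfi1b, Gata1, Zfpm1 and Tal1 higher in MEP (log2 changes 8.74, 7.13, 6.03, 5.33 and 3.30), where 16.6% of genes were, and Lyl1 and Nfe2 lower (-1.67 and -1.16), where 27.2% were. Gata2 did not pass between MEP and GMP, at 38.9 and 48.4 against 29.3 and 57.9 CPM (log2 change -0.10, SE 0.42).

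**Figure D4:**
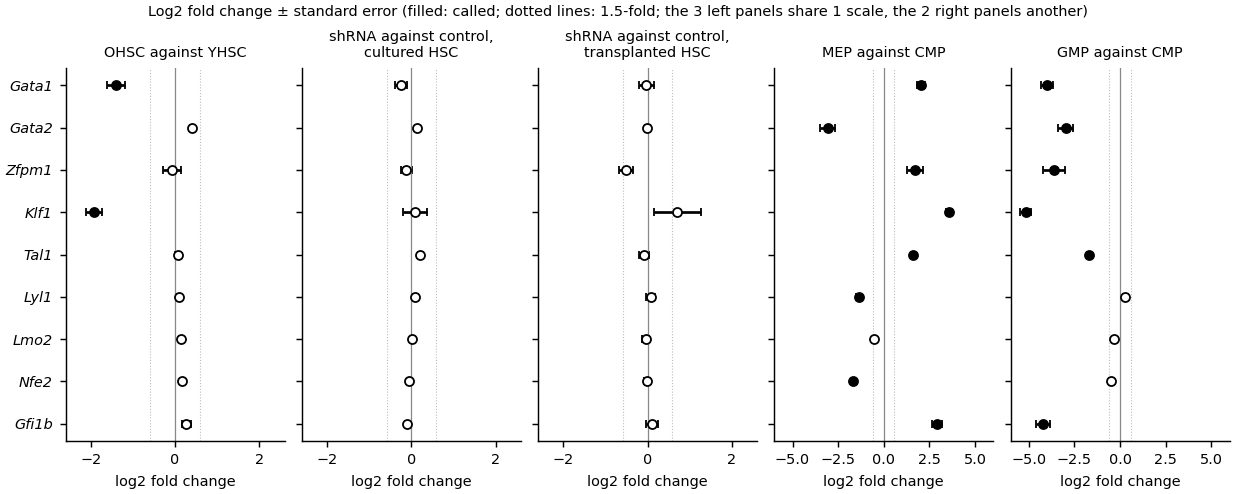
Log2 fold change ± standard error of each gene in 5 comparisons; filled points were called, dotted lines mark 1.5-fold, the 3 left panels share 1 scale and the 2 right panels another. Gata1 and Klf1 fell with age, no gene was called with knockdown, 5 rose and 3 fell in MEP against CMP, and 6 fell in GMP against CMP.

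The lists around the members also differed between the progenitors. All 28 red cell target genes were called higher in MEP than in CMP, with a median log2 change of 4.84 against -0.07 over all genes. Cldn13, a claudin, rose from 0.52 ± 0.34 to 251 ± 3.97 CPM (SD, n = 2), and Trim10 was at 0 in both CMP libraries and at 37.3 ± 0.47 CPM in MEP. Of 20 megakaryocyte target genes 18 were called lower in MEP than in CMP, and Thbs1 and Ppbp were at 0 in both MEP libraries. Between MEP and GMP 5 of the 20 were higher in MEP and 9 lower, where 16.6% of all genes were called higher and 27.2% lower. Among the 5 were the platelet glycoprotein genes Gp5, at 39.1 ± 10.1 CPM in MEP and 1.05 ± 1.33 CPM in GMP, and Gp1ba, at 7.99 ± 1.74 and 0.39 ± 0.39 CPM. Between GMP and CMP 16 red cell genes fell and 2 rose, and 18 of 20 megakaryocyte genes fell. Of the SCL partners 6 of 12 fell in MEP, among them the ETS factors Fli1, from 171 ± 8.69 to 4.52 ± 0.62 CPM, and Erg, from 16.03 ± 1.19 to 0.14 ± 0.04 CPM. The 2 that rose were the LDB1-binding Ssbp3 (43.8 ± 0.87 to 134 ± 2.27 CPM) and the E protein gene Tcf3 (241 ± 26.4 to 456 ± 10.2 CPM). In GMP 6 of the 12 fell, with Cbfa2t3, a corepressor of the complex, at 53.0 ± 10.7 against 134 ± 27.1 CPM. Over all genes 17.5% were called higher and 29.2% lower in MEP, and 6.24% and 10.5% in GMP. Of the NuRD and CoREST genes 2 of 12 rose in MEP, a share near that of all genes, and none was called in GMP, at a median log2 change of 0.02. The 2 were Rcor1, which scaffolds CoREST and rose from 163 ± 10.2 to 269 ± 3.52 CPM, and Mta1 (36.1 ± 12.2 to 59.1 ± 4.69 CPM), whose call was lost without CMP library 2, either MEP or either GMP library (log2 changes 0.49 to 0.89). Of the 7 partners and relatives of NF-E2, 1 rose and 3 fell in MEP, and 2 fell in GMP. Of 8 family relatives 1 rose and 6 fell in MEP (median log2 change -3.33), and 2 rose and 1 fell in GMP. The 1 that rose in MEP was Klf3, from 35.5 ± 0.30 in CMP to 172 ± 10.95 CPM in MEP. Gfi1 was 0.11 ± 0.08 CPM in MEP, 30.5 ± 4.38 CPM in CMP and 88.9 ± 11.4 CPM in GMP, the reverse order of its sister gene Gfi1b.

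Chromatin accessibility was compared between OHSC and YHSC in the 70 regions within 10 kb of the 9 genes, of which 66 passed a filter of 1.5 CPM in at least 4 libraries. A region was called at a change above 1.5-fold with an edgeR adjusted p below 0.01. Of these 2 were called, both higher in OHSC, and none lower, where 10.1% of 89245 regions were called higher and 2.9% lower. The median log2 change of the 66 was 0.01 against -0.01 over all regions. The region over the first start of Lmo2 (chr2:103957671-103958513) was 1.56, 2.01, 2.06 and 2.50 CPM in YHSC and 3.13, 3.499, 3.79 and 4.63 CPM in OHSC, a rise of 1.83-fold (log2 change 0.87, SE 0.19, adjusted p = 0.000243). The region at -2.49 kb from the start of Lyl1 (chr8:84698890-84699040), within the neighbouring gene Trmt1, was 1.31, 2.01, 2.11 and 2.40 CPM in YHSC and 2.94, 3.28, 3.32 and 4.74 CPM in OHSC (log2 change 0.84, SE 0.20, adjusted p = 0.000752). In neither did the groups overlap, and both regions are weak, at 31 to 120 reads a library. The Lyl1 region was no longer called without OHSC library 5 or YHSC library 1 (log2 changes 0.70 and 0.68, adjusted p = 0.0107 and 0.0111).

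The 2 genes that fell with age had no called change in accessibility. Of the 4 regions at Klf1, the one within the gene (chr8:84902625-84903685) was 23.0 ± 2.08 CPM in YHSC and 23.0 ± 2.47 CPM in OHSC (SD, n = 4). Its log2 change was -0.02 with an SE of 0.08, and those of all 4 ran from -0.08 to 0.16. At Gata1 the region with the GATA hexamer was 2.53, 3.32, 3.77 and 4.42 CPM in YHSC and 3.499, 4.34, 4.55 and 4.74 CPM in OHSC (log2 change 0.25, SE 0.17, adjusted p = 0.257). The other 2 regions, among them the one over its last start, were below the filter. At Gata2 the intronic region with the composite element was the strongest of its 7, at 36.2 ± 0.93 and 36.6 ± 2.61 CPM, and did not pass (log2 change 0.00, SE 0.06). The region over its first start was 12.6 ± 1.39 and 10.9 ± 0.32 CPM (adjusted p = 0.0596).

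At an adjusted p below 0.01 and any fold, 6 of the 66 regions passed, where 23.2% of all regions did. Of these 3 were at Zfpm1. The region over the Zfpm1 start was 53.7 ± 3.08 and 47.9 ± 4.33 CPM (-0.18), and an intronic region 14.7 kb after the start was 5.46 ± 0.43 and 7.74 ± 1.30 CPM (0.48). The last of the 6 lies beyond the end of Nfe2 (0.48). Regions over starts did not pass for Tal1 (57.5 ± 1.69 and 52.9 ± 2.32 CPM), Lyl1 (40.5 ± 0.86 and 40.7 ± 3.88 CPM), Nfe2 (35.8 ± 1.21 and 33.8 ± 1.36 CPM), Gfi1b (8.92 ± 0.67 and 7.09 ± 0.36 CPM) or the later starts of Lmo2 (56.6 ± 3.01 and 53.2 ± 4.15 CPM).

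**Figure D5:**
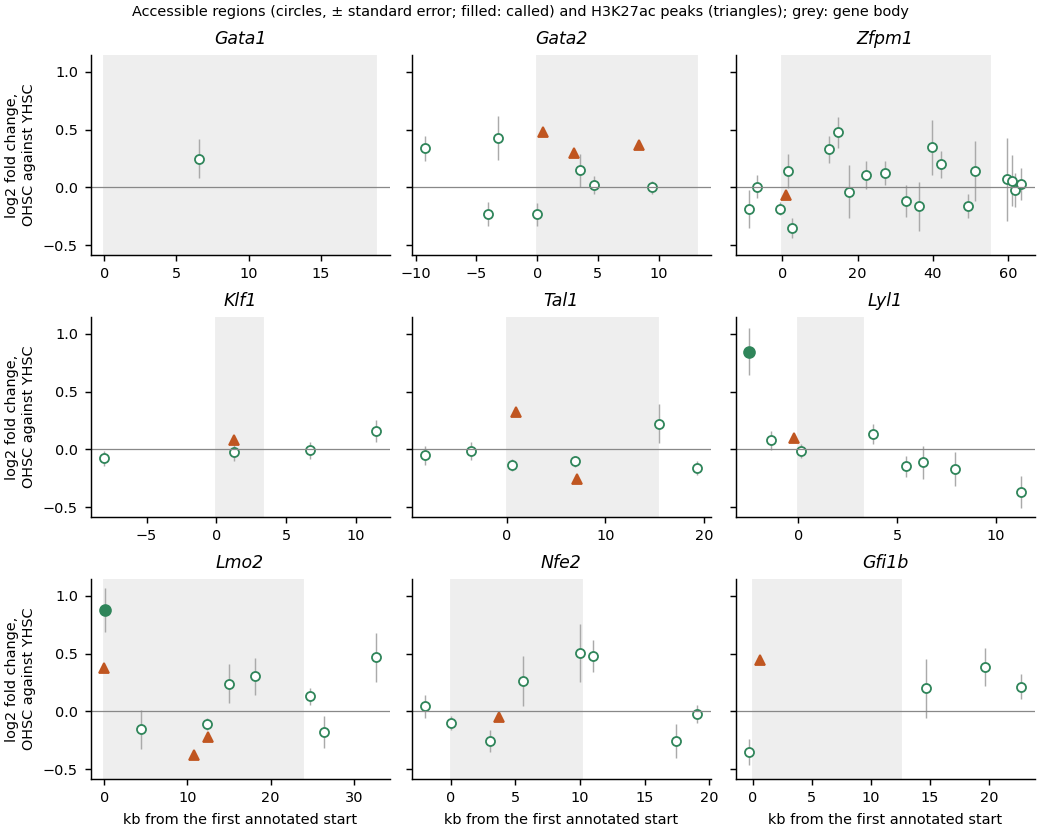
Log2 fold change between OHSC and YHSC of accessible regions (circles, ± standard error; filled where called) and H3K27ac peaks (triangles) against distance in kb from the first annotated start of each gene, with the gene body in grey. The 2 called regions, at Lyl1 and at the first start of Lmo2, are the highest circles, and the regions of Klf1 lie close to 0.

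H3K27ac, a mark of active promoters and enhancers, was measured in 2 YHSC and 2 OHSC libraries, and 13 of the 39557 peaks carried the name of a member; Gata1 had none. A peak was called where the mean signal changed more than 1.5-fold with every old library at least 1.2-fold from every young one, and limma was run beside it at an adjusted p below 0.05. None of the 13 was called by either, where the rule called 9.11% of all peaks higher and 2.27% lower and limma 2.72%. At any fold, 4 had an unadjusted limma p below 0.05, as did 17.2% of all peaks. The peak just after the first start of Gata2 had signals of 5.44 and 3.59 in YHSC and 6.52 and 5.89 in OHSC, a ratio of 1.37 (limma adjusted p = 0.121), and the other 2 peaks of Gata2 had ratios of 1.22 and 1.27. The Gfi1b start had a ratio of 1.37 and the first start of Lmo2, the site of the called accessible region, 1.87 and 1.94 against 2.09 and 2.96, a ratio of 1.33. The largest fall was upstream of the later starts of Lmo2 (chr2:103968503-103969109), from 5.94 and 6.29 to 4.84 and 4.52 (ratio 0.765, limma adjusted p = 0.173). Klf1 had 1 peak, with 3.10 and 2.33 against 2.85 and 2.87 and a ratio of 1.05. Without young library 1 the rule called 3 peaks (2 of Gata2 and that of Gfi1b, all higher) and limma 6, and without old library 1 the rule called the first start of Lmo2.

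Gata1 and Klf1 had no domain of H3K36me3, unlike the other 7 genes. In young HSC H3K4me3, the mark of active starts, had a mean signal of 30.1 to 36.1 at the main peaks of Tal1, Lmo2, Lyl1, Nfe2 and Zfpm1 and of 24.6 to 35.6 over the 4 peaks of Gata2, above that of 84.4% to 99.9% of 14684 peaks at starts. It was 18.1 at Klf1 and 15.5 at Gfi1b, above 53.4% and 42.4% of them, and 1.56 at the first start of Lmo2, and no peak was named for Gata1. Klf1 was the 1 member with a named domain of H3K27me3, the Polycomb mark, over its start (chr8:84899000-84901999; signals 0.518 and 0.543). H3K36me3, the mark of transcribed bodies, came as 1 list of domains over the libraries, with no signal and no age given. These domains covered all of Gata2, Lyl1 and Lmo2, 98.4% of Zfpm1, 92.2% of Gfi1b, 76.7% of Tal1 and 66.6% of Nfe2, and none of Gata1 or Klf1.

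Genes with the most similar pattern to each member were named by Pearson's r of the mean log2 CPM over the 11 RNA-seq groups, among 14954 genes. These are descriptions over groups of separate experiments, and 1 group such as MEP can carry an r. The 2 nearest members were Tal1 and Zfpm1 (r = 0.979), then Gata1 and Klf1 (0.947), Gfi1b and Tal1 (0.93) and Gata2 and Nfe2 (0.922), whereas Gata1 with Gata2 gave -0.439 and Gata1 with Lyl1 -0.790. The nearest gene to Gata1 was Dhx8 (0.963), followed by Stx2 and Golm1. The nearest to Gata2 were Lat (0.987), Pde5a and Cavin2, and to Klf1 the predicted gene Gm15915 (0.987), Gm43791 and Atp1b2. To Zfpm1, after Tal1, these were Gm26669 and Zfp36l1, and to Tal1 they were Fads3 (0.983), Mmp14 and then Zfpm1. The nearest to Lyl1 were Rab5b (0.984), Borcs6 and Pcnx, to Lmo2 Cox7a2l (0.993), Begain and Txnip, and to Nfe2 Gm16140 (0.998), Meis1 and Rnf122. The nearest to Gfi1b was Hemgn (0.995), a red cell gene also in the target list, followed by Epdr1 and Arl2bp.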

How the data were processed

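RNA-seq, ATAC-seq and ChIP-seq libraries of mouse HSC and progenitors were used as deposited. The authors trimmed reads, aligned RNA with STAR and DNA with BWA to mm10, and deposited raw counts per gene (featureCounts, GENCODE) and per accessible region. Strand and multi-mapping settings were stated in no source read, and the labels and the methods name different RNA library kits. The authors normalized ChIP libraries to a fixed read number and deposited the signal per peak or domain; their ratio columns were not used, 8 per-sample columns matched no label and were not used, and spike-in rows were left out. Some genes and 1 region are not reported here. Groups came from the labels, and p-values measure the spread between these libraries.

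Counts were filtered with filterByExpr, scaled by TMM and tested with the quasi-likelihood test of edgeR 4.0.16 (R 4.3.3), all progenitors in 1 fit, with Benjamini-Hochberg adjustment over all genes or regions. H3K27ac was tested with limma 3.58.1 on log2(signal + 0.1). DESeq2 1.42.0, no filter, a 2-fold threshold, separate shRNAs, a replicate block and each library left out were alternatives. The text names the 9 members, the list genes with the largest changes in each direction and the 3 genes most like each member; other list genes were named after their values were seen. Members and lists were chosen with earlier results of these data known. The scripts were tested on simulated data in which 200 features were changed 2-fold. The age fit recovered 151 with 1 false call, MEP against CMP 136 with 5 and accessibility 166 with 4. The knockdown rule, at an unadjusted p, recovered 181 in culture with 360 false calls and 162 after transplantation with 462. The difference between the knockdowns recovered 114 with 5 false calls. For H3K27ac limma recovered 108 with 6 false calls and the ratio rule 184 with 881. No sample stood apart by Dixon's test in the 44 sets of values tested, all from RNA-seq and ATAC-seq of YHSC or OHSC. The shRNA, progenitor and ChIP-seq groups, with 2 libraries each, were not tested for outliers. Figures were drawn with matplotlib 3.10.9.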

Additional observations from a re-analysis of the deposited data

How the results depend on the processing

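With age, 2 members (Gata1 and Klf1) were called under every alternative, at log2 changes of -1.53 to -1.33 and -2.13 to -1.79. After transplantation the count moved from 0 to 1 (Zfpm1) with shRNA2 alone, and was 0 to 1 when 1 library was left out. Accessible regions called moved from 2 to 1 with gene bodies extended by 2 kb only and to 0 at a 2-fold threshold, and were 1 to 2 without 1 library. H3K27ac peaks of members ran from 0 to 3 by the ratio rule and from 0 to 6 by limma without 1 library. Members called numbered 6 to 8 for MEP against CMP, 4 to 6 for GMP against CMP and 7 for MEP against GMP without 1 library. The other counts stayed within 1.5 times the main count, and 35 log2 changes of members that were not called had another sign under an alternative. The causes were not tested. In culture Klf1 rested on 43 to 65 reads per library, and its log2 change had an SE of 0.28.

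Same-numbered libraries did not deviate together. The correlations of deviations were -0.229 to 0.105 with age, 0.0306 to 0.0582 in progenitors and 0.0201 for H3K27ac. They were -0.00913 to 0.0288 in culture and -0.0142 to 0.0357 after transplantation. Such values cannot decide whether same-numbered libraries share a source, and the main fits did not pair them. With the replicate number as a replicate block, 2 members were called with age (replicates 1 to 4 only), 0 in either knockdown and in the difference between them, 7 for MEP against CMP, where Zfpm1 was lost (adjusted p = 0.0604), 6 for GMP against CMP and 7 for MEP against GMP, and limma passed 0 peaks. No paired analysis was possible for ATAC-seq because its YHSC libraries are numbered 1 to 4 and its OHSC libraries 5 to 8.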
